A study of Mus musculus with 2 samples.

Results

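The genes described here are 10 genes of the oxidative stress response and metal buffering: Nfe2l2, Mt1, Mt2, Prdx1, Txnrd1, Srxn1, Gclc, Gclm, Slc7a11 and Nqo1. They were taken by symbol from the deposited expression values, and all 10 were listed among the 24346 symbols of both libraries. The bulk RNA-seq compared Tregs (regulatory T cells) of the spleen with those of the lung in Foxp3-DTR-GFP (FDG) mice, in which the endogenous Foxp3 locus drives GFP, and the diphtheria toxin receptor named in the genotype. Mice aged 10 to 16 weeks had received 50 μg of bleomycin (BLM) into the trachea, an agent that injures the lung and leads to fibrosis. GFP+CD4+ cells were sorted on day 15, and each tissue gave 1 library, made from a pool of 3 mice. Both libraries came from BLM-treated mice, so the comparison is between tissues and has no untreated group. With a single pool per tissue the variation between mice is not known, so differences are described by their size and no p-value was computed.

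NRF2, the protein encoded by Nfe2l2, is a transcription factor that KEAP1 holds back by targeting it for degradation. Oxidants and electrophiles block this step, and NRF2 then pairs with small MAF proteins on a DNA motif called the antioxidant response element (ARE). Its best known targets serve glutathione synthesis (Gclc, Gclm, Slc7a11), run the thioredoxin system (Txnrd1, Prdx1, Srxn1) and detoxify quinones (Nqo1). Metallothioneins (Mt1, Mt2) are small proteins rich in cysteine that bind zinc and copper and can also scavenge oxidants. Their genes are switched on by the zinc sensor MTF-1 through metal response elements (MREs), and also respond to glucocorticoids and inflammatory cytokines.

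Promoter windows were read for these genes because several of them were higher in lung and share regulators. RefSeq (GRCm38.p6, the assembly called mm10) gave 11 windows for 9 genes, each running from 250 bases before to 50 bases after the annotated gene start. Gclc was not in the table, and Txnrd1 had 3 starts. Both strands were searched for the ARE core, TGACNNNGC, and for 2 spellings of the MRE core, TGCACNC and TGCGCNC. The windows of the metallothionein genes and of the pair Prdx1 and Srxn1, a peroxidase and the enzyme that repairs it, are shown 5′ to 3′ on the gene's strand. Capitals mark matches to the ARE or MRE core on either strand.
Mt1, chr8:94178839-94179138, plus strand: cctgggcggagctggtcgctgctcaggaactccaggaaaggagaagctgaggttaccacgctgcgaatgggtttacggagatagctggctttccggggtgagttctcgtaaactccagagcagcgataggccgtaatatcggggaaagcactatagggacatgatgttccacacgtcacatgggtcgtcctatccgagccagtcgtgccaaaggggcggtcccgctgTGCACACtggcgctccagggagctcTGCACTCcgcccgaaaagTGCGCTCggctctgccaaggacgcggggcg
Mt2, chr8:94172368-94172667, plus strand: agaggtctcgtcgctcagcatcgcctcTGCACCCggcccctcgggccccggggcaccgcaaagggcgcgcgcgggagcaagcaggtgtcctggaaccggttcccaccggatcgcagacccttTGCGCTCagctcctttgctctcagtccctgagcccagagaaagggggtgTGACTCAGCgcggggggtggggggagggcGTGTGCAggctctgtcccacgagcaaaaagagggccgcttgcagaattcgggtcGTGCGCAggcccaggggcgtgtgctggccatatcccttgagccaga
Prdx1, chr4:116685349-116685648, plus strand: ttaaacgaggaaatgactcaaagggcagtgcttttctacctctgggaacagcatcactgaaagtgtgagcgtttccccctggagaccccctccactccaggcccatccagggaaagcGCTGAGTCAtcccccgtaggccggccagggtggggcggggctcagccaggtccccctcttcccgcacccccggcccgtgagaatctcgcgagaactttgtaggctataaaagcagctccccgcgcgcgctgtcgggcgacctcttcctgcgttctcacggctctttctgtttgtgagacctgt
Srxn1, chr2:152105274-152105573, plus strand: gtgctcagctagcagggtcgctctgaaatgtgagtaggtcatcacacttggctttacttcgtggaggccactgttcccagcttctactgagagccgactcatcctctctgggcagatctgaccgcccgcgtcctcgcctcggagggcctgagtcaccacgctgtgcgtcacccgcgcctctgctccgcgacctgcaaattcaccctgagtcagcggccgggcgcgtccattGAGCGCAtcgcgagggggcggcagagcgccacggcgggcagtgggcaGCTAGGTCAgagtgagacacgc

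The Mt1 window held 3 MRE matches and the Mt2 window 4. At least 1 MRE match was found in 25.7% of all 32851 windows of the table, and 3 or more in 1.97%. Gclm also had 3 matches and Srxn1 had 1, whereas the windows of the other 5 genes had none. An ARE match was present in a window of 6 of the 9 genes (Mt2, Gclm, Txnrd1, Srxn1, Prdx1 and Nfe2l2), or in 6 of their 11 windows (54.5%), against 12.4% of all windows. In Mt2 and Prdx1 the match read TGACTCAGC and overlapped an AP-1 motif (TGANTCA, in 7.81% of all windows), and in Gclm it overlapped an MRE match. Srxn1 held 2 AP-1 matches apart from its ARE match, and Prdx1 a further AP-1 match, none of them in capitals. The windows of Mt1, Nqo1 and Slc7a11 held no ARE match, which says only that these letters were not in this stretch. Most of these genes are known targets of NRF2 or MTF-1, so shares above those of all windows followed in part from the choice of genes. Binding was not measured, so the matches describe sequence alone.

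**Figure D1:**
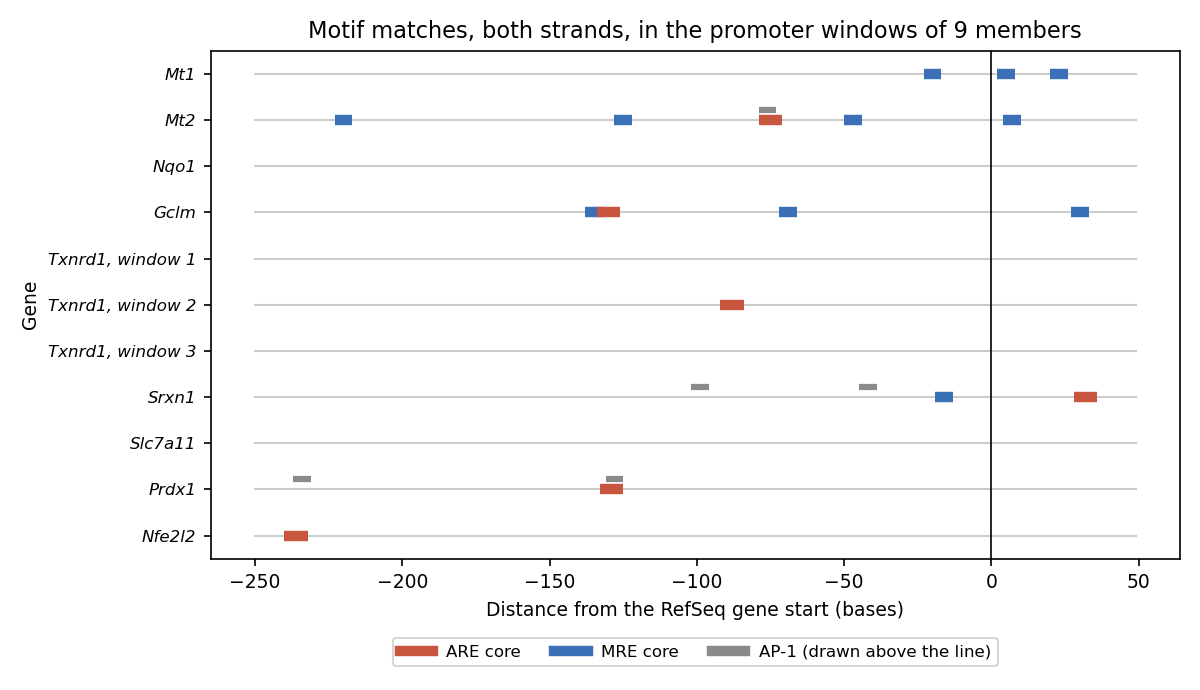
Matches to the ARE core (red), MRE core (blue) and AP-1 motif (grey) on either strand, by distance in bases from the RefSeq gene start, with 1 line per promoter window. The metallothionein windows carried 3 and 4 MRE matches, and 6 of 9 genes had an ARE match.

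Levels are given as FPKM, fragments scaled both to exon length and to the size of the library, so that genes can be compared within a library. The deposited FPKM summed to 599633 in spleen and 808853 in lung. For the lung to spleen ratio, values under 0.1 FPKM were set to 0.1, and a gene was counted when the ratio exceeded 2-fold. The reads behind each FPKM were estimated from transcript lengths, and the 95% intervals of a fold are exact binomial intervals on these reads. They cover counting error only, and not the variation between mice or the copies made by PCR.

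Of the 10 genes, 6 were more than 2-fold higher in lung (Nfe2l2, Mt1, Mt2, Prdx1, Srxn1 and Slc7a11), 1 was more than 2-fold lower (Nqo1), and Gclc, Gclm and Txnrd1 lay within 2-fold. Among all 12094 genes that reached 1 FPKM in either library, 17.8% were more than 2-fold higher in lung and 15.5% more than 2-fold lower. Slc7a11 and Nqo1 did not reach 1 FPKM in either library, and 5 of the other 8 genes were more than 2-fold higher. Mt2 reached that level only in the library where it was high, so its place among the 5 followed from the filter. Over all listed genes, without a minimum, 11.0% were more than 2-fold higher and 11.7% lower. The median log2 ratio of the 10 genes was 1.28, and that of all 12094 genes was 0.031.

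Because the FPKM sums differed, both libraries were also rescaled to the same sum (TPM). This lowered the log2 ratio of every gene above the floor in both libraries by 0.43, and moved the shares of all genes to 13.3% higher and 27.5% lower. The median log2 ratio of the 12094 genes became -0.40. On this scale 5 of the 10 genes passed 2-fold in lung, with Nfe2l2 no longer among them, and Nqo1 passed it in spleen. Both counts of the 10 genes were as before when the libraries were set to equal upper quartiles or to a median ratio of 1.

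**Figure D2:**
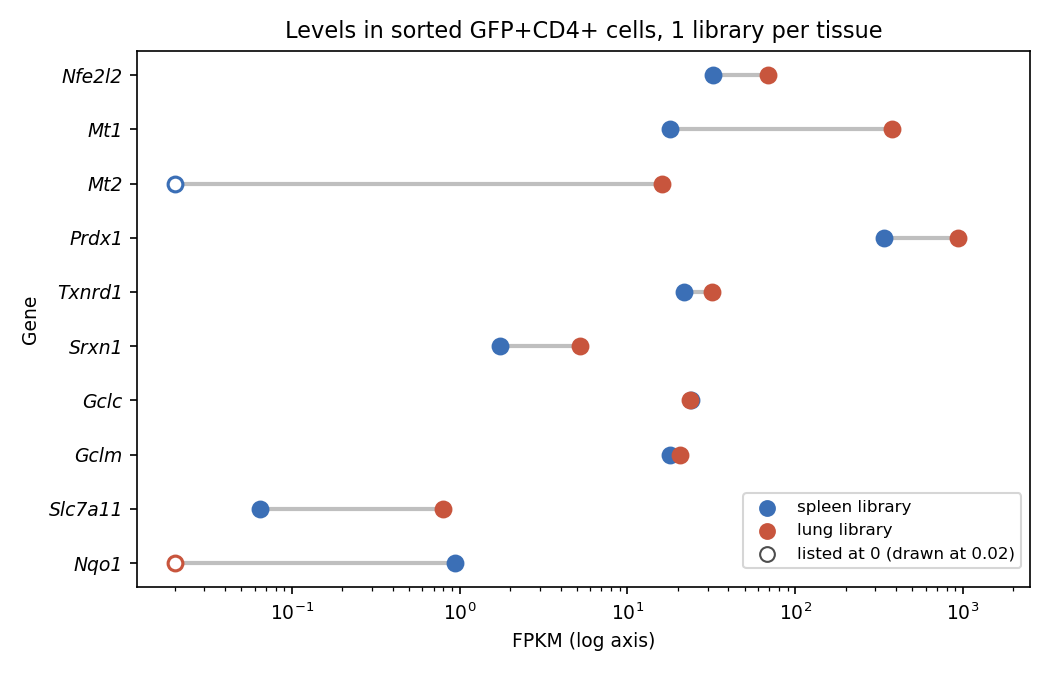
FPKM of the 10 genes in the spleen (blue) and lung (red) library on a log axis, with open circles for a gene listed at 0. Mt1 held the sixth place in spleen and the second in lung, and Prdx1 was the highest of the 10 in both libraries.

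Nfe2l2, the gene of NRF2 itself, lies on the minus strand of chromosome 2 from 75675513 to 75704641, with up to 5 exons. Its level was 32.4 FPKM in spleen and 68.9 FPKM in lung, about 588 and 1421 reads. The lung value was 2.13-fold higher (95% interval 1.93 to 2.35), and 1.58-fold higher after rescaling to TPM, so it passed 2-fold only without that rescaling. Nfe2l2 had 2 transcripts, of 2 and 5 exons, so its reads and this interval are approximate. It was the second of the 10 genes by level in spleen and the third in lung. NRF2 is controlled mainly by protein stability, which RNA levels do not show.

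Metallothionein genes had the largest lung to spleen ratios of the 10, although the 95% interval of Slc7a11 (5.43 to 34.6) overlapped theirs. Mt1 and Mt2 lie next to each other on the plus strand of chromosome 8, with 3 exons each, Mt2 from 94172664 to 94173568 and Mt1 from 94179082 to 94180327, and 5513 bases between them. Mt1 was listed at 17.9 FPKM in spleen and 378 FPKM in lung, about 63.2 and 1515 reads. This was 21.1-fold higher in lung (95% interval 16.5 to 27.7) and 15.7-fold higher after rescaling to TPM. Its ratio exceeded that of 97.0% of the 12094 genes, and its lung level exceeded 97.0% of genes at 1 FPKM or more there, against 56.5% in spleen.

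Mt2 was listed at 0 in spleen and at 16.1 FPKM in lung, about 57.3 reads. A count of 0 allows up to 3 reads, which is 0.958 FPKM on a transcript of this length, so against this floor Mt2 was at least 16.8-fold higher in lung. Once the counting error of the lung reads was included, the 95% interval reached down to 13.2-fold, before any rescaling to TPM. The pair therefore differed between tissues in the same direction, but their levels were unlike, since Mt1 stood 23.5-fold above Mt2 in the lung library. In part this comparison is uncertain, because Mt2 shares 355 exonic bases with the antisense transcript Gm45774 and the library preparation was not stated to keep strand. No stretch of 75 bases, the read length, was shared between the Mt1 transcript and that of any other gene, whereas 32.3% of those of Mt2 occur in Gm45774. The other genes of the cluster, Mt3 and Mt4, are known mainly from brain and from squamous epithelium. Mt3 was at 0.877 FPKM in spleen and 0.773 FPKM in lung, about 3 reads in each, and Mt4 was listed at 0 in both.

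Thioredoxin pathway genes had smaller ratios than the metallothionein genes. Prdx1 encodes a peroxiredoxin that reduces hydrogen peroxide, and lies on the plus strand of chromosome 4 from 116685544 to 116700822. Its level was 336 FPKM in spleen and 936 FPKM in lung, about 7263 and 22987 reads, the highest level of the 10 genes in either library. The lung value was 2.79-fold higher (95% interval 2.71 to 2.86), and 2.07-fold higher after rescaling to TPM. Of its 75-base stretches, 5.63% also occur in the processed pseudogenes Gm21399 and Gm7204, neither of which is listed.

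Srxn1 encodes sulfiredoxin, which repairs peroxiredoxins that have been inactivated by too much peroxide. Its level was 1.74 FPKM in spleen and 5.22 FPKM in lung, about 47.0 and 160.0 reads. It was thus 3.0-fold higher in lung (95% interval 2.15 to 4.24), and 2.22-fold higher after rescaling to TPM. Within each library Prdx1 stood far above Srxn1, 193-fold in spleen and 179-fold in lung, so the 2 genes kept nearly the same proportion.

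Txnrd1 encodes the cytosolic thioredoxin reductase, a selenoprotein that uses NADPH. It was listed at 21.6 FPKM in spleen and 32.1 FPKM in lung, about 720.4 and 1217 reads. Its lung value was 1.49-fold higher (95% interval 1.36 to 1.63), but only 1.10-fold higher after rescaling to TPM. It did not pass 2-fold in either direction, and it had 4 transcripts of different length, so its reads are approximate.

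Genes of glutathione synthesis differed in their ratios. Gclc encodes the catalytic and Gclm the modifier subunit of glutamate-cysteine ligase, the enzyme of the first and rate-limiting step. Gclc was listed at 23.8 FPKM in spleen and 23.6 FPKM in lung, about 793 and 895 reads. Its lung to spleen ratio was 0.994 (95% interval 0.902 to 1.10), and 0.737 after rescaling to TPM. Gclm stood at 18.01 FPKM in spleen and 20.7 FPKM in lung, about 1005 and 1311 reads. This ratio was 1.15 (95% interval 1.06 to 1.25), but 0.852 after rescaling to TPM, so its direction depended on the scaling. The subunits stayed close to each other in level, with a Gclc to Gclm ratio of 1.32 in spleen and 1.14 in lung.

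Slc7a11 encodes xCT, the transporter that brings in cystine for glutathione synthesis in exchange for glutamate. It was low in both libraries, at 0.0642 FPKM in spleen and 0.791 FPKM in lung, about 6.0 and 84.0 reads on a long transcript of 9223 nt. Of its 75-base stretches, 0.929% also occur in other genes, among them the tubulin genes Tuba1a (78.9 FPKM in spleen and 60.3 in lung) and Tuba1b (92.0 and 89.0 FPKM), so that some of these few reads may not be its own. With the floor of 0.1 FPKM it was 7.91-fold higher in lung, and 12.3-fold higher when only values under 3 reads were raised (95% interval 5.43 to 34.6). With a floor or a pseudocount of 1 FPKM, above both of its levels, it did not pass 2-fold. Its partner subunit, Slc3a2, which also serves other amino acid transporters, was at 55.7 FPKM in spleen and 104 FPKM in lung.

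Nqo1, the quinone reductase often used as a readout of NRF2 activity, went the other way. It lies on the minus strand of chromosome 8 from 107388225 to 107403206. Its level was 0.933 FPKM in spleen, about 13.0 reads, and it was listed at 0 in lung. A count of 0 allows 0.190 FPKM in lung, so against this floor Nqo1 was at least 4.92-fold lower there. With the counting error of the splenic reads included, the 95% interval reached down to 3.46-fold. With a floor or a pseudocount of 1 FPKM, which lies above its splenic level, it no longer passed 2-fold.

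**Figure D3:**
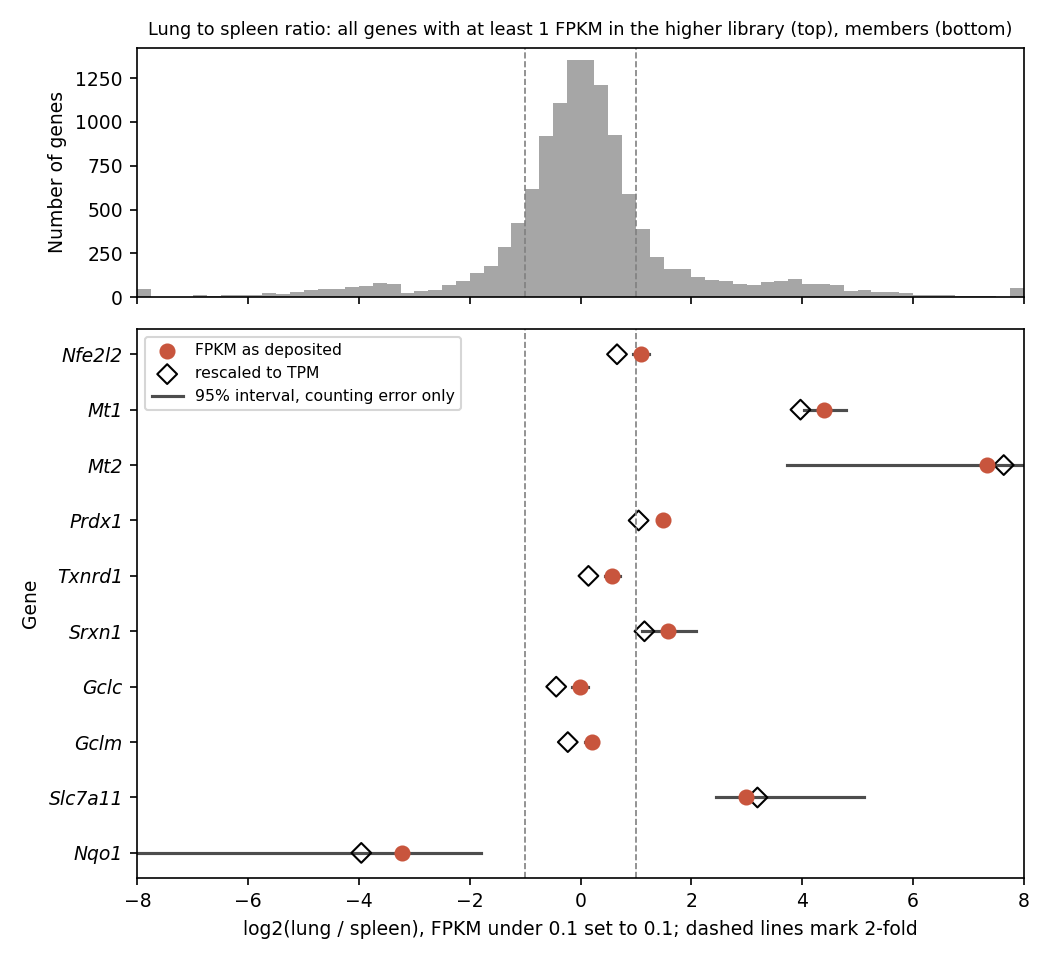
Top, number of genes by log2 ratio of lung to spleen for all genes that reached 1 FPKM in either library, with ratios beyond 8 placed in the end bins. Bottom, the 10 genes with deposited FPKM (filled) and after rescaling to TPM (open), lines being 95% intervals that cover counting error only and run off the axis for Mt2 and Nqo1. Mt1 and Mt2 lie far to the right, Gclc and Gclm near 0, and Nqo1 to the left.

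In the order of levels, the spleen library ran from Prdx1 through Nfe2l2, Gclc, Txnrd1, Gclm and Mt1 to Srxn1, Nqo1, Slc7a11 and Mt2. In lung the order was Prdx1, Mt1, Nfe2l2, Txnrd1, Gclc, Gclm, Mt2, Srxn1, Slc7a11 and Nqo1. Mt1 stood in the sixth place in spleen and the second in lung. Gclm and Mt1 in spleen, at 18.01 and 17.91 FPKM, were too close for their order to be read. The places of Nqo1, Slc7a11 and Mt2 in spleen could not be read either, since the 0 of Mt2 allows a level above both of the others. With 1 library per tissue, no spread is available for the other steps of this order.

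To place these genes in their pathways, 89 related genes in 7 lists were described in the same way. Of the 89, 23 were more than 2-fold higher in lung, 12 more than 2-fold lower and 54 within 2-fold. Among the 81 that reached 1 FPKM in either library, 28.4% were higher and 12.3% lower, beside 17.8% and 15.5% of all genes. After rescaling to TPM, 13 of the 89 were higher and 19 lower. Of the 81, 13 were higher and 16 lower on that scale, when 13.3% of all genes that reached 1 TPM were higher and 27.5% lower. In the lists below, counts are over all genes of a list, to be read beside 11.0% higher and 11.7% lower among all 24346 symbols. Medians are over the genes of a list that reached 1 FPKM in either library.

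Among 14 genes of zinc handling, 1 was higher and 4 were lower in lung, with a median log2 ratio of -0.10. Mtf1, the gene of the MRE-binding zinc sensor, was at 3.14 FPKM in spleen and 1.48 FPKM in lung, 2.13-fold lower. The zinc importer gene Slc39a6 was 4.27-fold lower, at 12.1 FPKM in spleen and 2.82 FPKM in lung. Slc30a1, the zinc exporter gene that is itself a known target of MTF-1, was at 3.19 FPKM in spleen and 5.84 FPKM in lung, a 1.83-fold difference that did not pass 2-fold. The other genes past 2-fold were the transporter genes Slc39a14 and Slc30a4, which were lower, and Slc39a1, which was higher but within 2-fold after rescaling to TPM. These 3 genes and Slc30a1 were named after their values had been seen. Over all listed genes, without a minimum, 11.0% were more than 2-fold higher in lung and 11.7% lower. Most genes thus did not share the higher values of Mt1 and Mt2, in this list or among all genes.

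Among 12 partners and regulators of NRF2, 10 lay within 2-fold and the median log2 ratio was -0.21. Keap1 was at 18.4 FPKM in spleen and 14.7 FPKM in lung. Bach1, a repressor that competes for AREs, was 2.01-fold higher, at 2.56 FPKM in spleen against 5.14 FPKM in lung, and 1.49-fold higher after rescaling to TPM. Bach2, a related repressor that maintains resting T cells and Tregs, was 4.402-fold lower, at 8.85 FPKM in spleen and 2.01 FPKM in lung. These last 2 genes were named after their values had been seen, as the only members of the list past 2-fold.

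Other known NRF2 targets were divided. Of 16, 6 were higher and 2 lower, with a median log2 ratio of 0.48 that became 0.052 after rescaling to TPM. Over all 12094 genes the median went from 0.031 to -0.40, so that of the list stayed above it on both scales. On that scale 4 were higher and 4 lower. The ferritin chains, which store iron, were among the most abundant genes of both libraries, with Fth1 at 1582 FPKM in spleen against 8215 FPKM in lung and Ftl1 at 2372 and 9112 FPKM. They were 5.19-fold and 3.84-fold higher in lung, and 3.85-fold and 2.85-fold after rescaling to TPM. Cbr3, a carbonyl reductase gene, was 25.3-fold higher, at 0.402 FPKM in spleen, about 4.01 reads, and 10.2 FPKM in lung. The other higher genes, named after their values had been seen, were Me1, Sesn2 and Taldo1. Me1 was 26.7-fold higher, at 0.0633 FPKM in spleen, about 2.02 reads, and 2.67 FPKM in lung. Sesn2 was 2.64-fold and Taldo1 2.11-fold higher, and both were within 2-fold after rescaling to TPM. In contrast, the heme oxygenase gene Hmox1 was 2.14-fold lower, at 91.0 FPKM in spleen against 42.5 FPKM in lung, and Osgin1 was 3.82-fold lower, at 10.7 and 2.81 FPKM.

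Glutathione genes spread widely. Of 22, 7 were higher and 4 lower. The median log2 ratio was 0.74 over the 20 that reached 1 FPKM and 0.68 over all 22. Rescaling to TPM brought the former to 0.31, beside -0.40 over all 12094 genes. After rescaling to TPM 6 of the 22 were higher and 6 lower. The transferase gene Gstm1 was 21.2-fold higher, at 6.31 FPKM in spleen and 134 FPKM in lung. Secreted peroxidase gene Gpx3 was at 1.47 and 15.6 FPKM, and the microsomal transferase genes Mgst1 and Mgst3 were at 7.61 and 74.3 FPKM and at 9.94 and 51.7 FPKM, in spleen and lung respectively. Gsr, which regenerates reduced glutathione, was at 26.9 FPKM in spleen and 52.8 FPKM in lung, 1.96-fold higher and so within 2-fold. The 4 genes lower before rescaling, named after their values had been seen, were Ggt1, Gstk1, Gstm5 and Chac1. Gstm5 and Chac1 did not reach 1 FPKM, and lay within 2-fold when values under 3 reads were raised. The other higher genes, also named after their values had been seen, were Gss, Glrx and Gpx1. Gss, the glutathione synthetase gene, was at 7.92 FPKM in spleen and 23.8 FPKM in lung, 3.01-fold higher and 2.23-fold after rescaling to TPM. Glrx was 3.62-fold and Gpx1 2.30-fold higher, or 2.68-fold and 1.70-fold after rescaling to TPM.

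In the list of 13 thioredoxin and peroxiredoxin genes, 4 were higher and 1 lower, with a median log2 ratio of 0.60. Thioredoxin itself, Txn1, was 2.37-fold higher, at 145 FPKM in spleen and 344 FPKM in lung. Prdx5 was 2.51-fold higher, at 120.4 and 302 FPKM, and Msrb1, which repairs oxidised methionine, was 2.26-fold higher, at 9.25 and 20.9 FPKM. The mitochondrial reductase gene Txnrd2 was 2.43-fold lower, at 17.5 FPKM in spleen and 7.21 FPKM in lung. The fourth higher gene, named after its values had been seen, was Prdx4, at 29.9 and 63.9 FPKM. After rescaling to TPM, Txn1, Prdx5, Prdx4 and Msrb1 were higher by less than 2-fold. On that scale none of the 13 passed 2-fold upwards and 3 passed it downwards.

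Of 4 genes of superoxide dismutases and catalase, 2 were higher. Sod2, the mitochondrial dismutase gene, was 2.07-fold higher, at 18.5 FPKM in spleen and 38.4 FPKM in lung, or 1.53-fold higher after rescaling to TPM. Sod3, the extracellular enzyme gene, was at 0.158 FPKM in spleen against 5.09 FPKM in lung and was named after its values had been seen. Among 8 genes of the NADPH oxidases, which produce superoxide, Cybb, the catalytic subunit of the phagocyte oxidase, was 4.01-fold higher, at 23.9 FPKM in spleen against 95.8 FPKM in lung. Nox4 and Duox2 were listed at 0 in both libraries and Duox1 at 0 in lung.

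**Figure D4:**
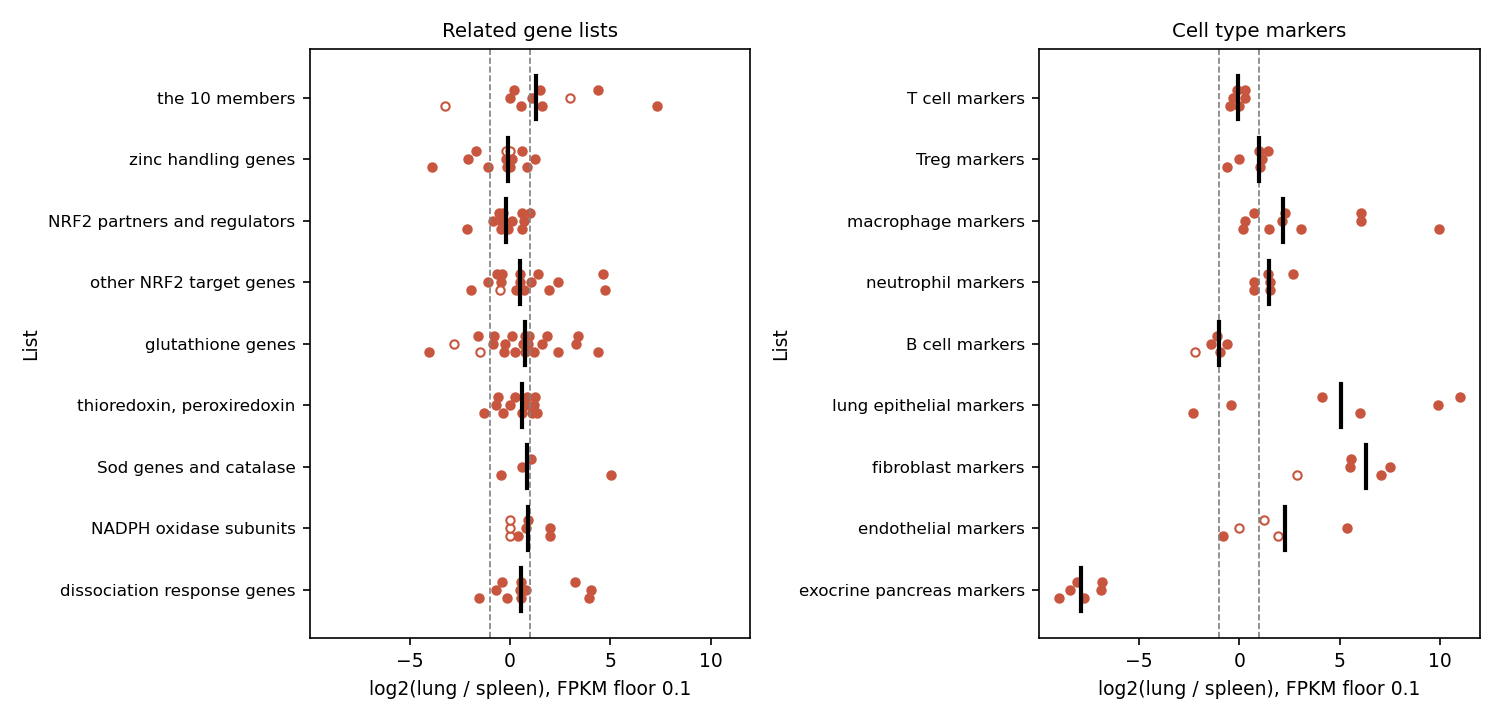
Log2 ratio of lung to spleen for each gene (points) of the related lists and of the cell type markers, with bars at the median over genes that reached 1 FPKM in either library and open points for genes below that level. T cell markers lie near 0, and all fibroblast markers and most markers of macrophages and epithelium lie to the right. The epithelial gene Epcam lies to the left, and the macrophage genes Csf1r and Mrc1 lie near 0.

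Markers of the sorted cells and of other cells were read beside these results. The 6 listed T cell markers lay within 2-fold, with a median log2 ratio of -0.066 and Cd3g highest at 902 FPKM in spleen against 1103 FPKM in lung, and Foxp3 was at 18.7 and 41.8 FPKM. The Treg list, Foxp3 included, had 3 of 6 genes more than 2-fold higher (Foxp3, Ctla4 and Tnfrsf4, of which only Ctla4 passed after rescaling to TPM). Il2ra was 2.04-fold lower on that scale. The summed level of the Treg list was 1328 FPKM in spleen and 2666 FPKM in lung. Of 10 macrophage markers 7 were more than 2-fold higher in lung and none was at 0. The other 3, Adgre1, Csf1r and Mrc1, lay within 2-fold. After rescaling to TPM the lung to spleen ratio was 0.848 for Csf1r and 0.913 for Mrc1. The summed level of the 10 was 679 FPKM in spleen and 31805 FPKM in lung, most of it Lyz2 at 376 and 24947 FPKM. Macrophage transcripts were thus present in both libraries and mostly higher in lung. Of 6 neutrophil markers 4 were higher, with sums of 429 and 1214 FPKM and S100a8 the highest. Of 6 lung epithelial markers 4 were higher, with sums of 12.5 and 3127 FPKM, most of it Scgb1a1 in lung, and Sftpc, Sftpb and Sftpd at 0 in spleen. All 5 fibroblast markers were higher, with sums of 0.290 and 47.0 FPKM and Dcn the highest, and Col3a1 and Pdgfra at 0 in spleen. Fibroblast, surfactant and Scgb1a1 transcripts were thus much higher in the lung library, whereas the epithelial gene Epcam was lower there, at 8.75 FPKM in spleen against 1.79 FPKM in lung. Of 5 endothelial markers 3 were higher (Cldn5, Cdh5 and Tek) and Pecam1 was the highest, with sums of 55.0 and 38.8 FPKM, Cdh5 and Tek at 0 in spleen and Kdr at 0 in lung. Of 5 B cell markers 3 were more than 2-fold lower in lung (Cd79a, Ms4a1 and Pax5), with sums of 239 and 123 FPKM and Cd79b the highest. All 6 exocrine pancreas markers were lower, with sums of 155 and 0.0620 FPKM, Cela2a the highest in spleen and all but Cpa1 at 0 in lung. Transcripts of the exocrine pancreas were thus found almost only in the splenic library. Macrophages, epithelium and fibroblasts are known to express metallothioneins, Prdx1 and ferritins as well. The libraries were made from cells sorted for GFP and CD4, and the part of such other cells in the values above was not tested. In bulk samples fewer cells of a type and less RNA per cell cannot be told apart.

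The lung tissue was digested with enzymes at 37 °C for 1 hour before sorting. Of 11 genes known to respond to tissue dissociation, 3 were more than 2-fold higher in lung and 1 was lower, with a median log2 ratio of 0.55. The heat shock genes Hspa1a (7.11 FPKM in spleen against 117 FPKM in lung) and Hspa1b (22.9 and 220.5 FPKM) and the stress factor gene Atf3 (5.67 and 87.7 FPKM) were higher. Egr1 was lower, at 82.5 FPKM in spleen against 28.8 FPKM in lung. Fos and Jun lay within 2-fold, but Jun was 2.15-fold lower after rescaling to TPM. The part of tissue handling in the values of Mt1 and the other genes was not tested.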

How the data were processed

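GFP+CD4+ cells from spleen and lung were profiled as 1 library per tissue. The authors mapped 75-base single-end reads of SMART-Seq HT cDNA to mm10 with TopHat2 2.1.1, Bowtie2 2.2.8 and SAMtools 0.1.18, and the deposited FPKM were calculated with Cuffdiff 2.2.1. The gene annotation, the options of Cuffdiff and any scaling between libraries are not given in the sources used here. The tissue of each library was taken from its label.

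The 10 genes and all gene lists were chosen with earlier results of these data known. Ratios used FPKM floored at 0.1, and counts over all genes required 1 FPKM in either library. Related genes were named when past 2-fold and at 10 FPKM or more in either library, at most 4 per list, with Keap1, Mtf1, Slc3a2, Txn1, Gsr and Hmox1 added as known partners, and a result that this rule would name is not reported here. The 3 genes nearest to Mt1 in the plane of log2 FPKM in both libraries were also named. For each marker list the highest gene and those at 0 were named.

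Reads were estimated from GENCODE M21 transcripts (GRCm38) tied to RefSeq, with the median length per gene, for 23016 symbols (94.5%), all 10 genes included. Effective lengths assumed fragments of mean 200, SD 80 and at least 75 bases. One read at 1 kb was worth 0.0964 FPKM in spleen and 0.0849 FPKM in lung, a value shared by 209 and 127 genes, and estimated reads summed to 9647300 and 12631700. Of genes with 1 to 10 reads and a single transcript length, 73.0% and 75.1% lay within 0.1 of a whole number. Steps were tested on simulated data. Calculations used scipy 1.17.1, pandas 2.3.3 and numpy 2.4.6 under Python 3.11.15, and plots matplotlib 3.10.9. Other floors, pseudocounts, scalings, filters and folds were tried as alternatives.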

Additional observations from a re-analysis of the deposited data

How the results depend on the processing

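Of the counts, those of the 10 genes more than 2-fold higher in lung (6) and lower (1) stayed within 1.5 times under all settings tried but 3: a floor of 1 FPKM and a pseudocount of 1 FPKM each left 0 lower, and a 4-fold threshold left 3 higher. Rescaling to TPM moved all genes more than 2-fold lower from 1872 to 3458, and the related genes from 23 to 13 higher and from 12 to 19 lower. Without a minimum FPKM 2850 of all genes were lower, and with at least 5 FPKM 1192 were higher and 1037 lower. A 1.5-fold threshold gave 3311 higher and 3070 lower, and a 4-fold threshold 1212 and 847. Log2 ratios over the 9 settings ran from 3.97 to 4.401 for Mt1, 4.01 to 10.65 for Mt2, 1.05 to 1.48 for Prdx1, 1.15 to 1.58 for Srxn1, 0.66 to 1.09 for Nfe2l2, 0 to 3.62 for Slc7a11 and -6.54 to 0 for Nqo1. No paired analysis was possible because each tissue has 1 library, and for the same reason no library could be left out. Depth limits Mt2, Nqo1 and Slc7a11, which had 0 to 6 estimated reads in the lower library.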

Other observations

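Ratios between genes of the same library do not depend on the scaling between libraries. Mt1 stood at 0.0533 of the Prdx1 level in spleen and at 0.404 in lung, a 7.58-fold difference. Against Gclc, the gene of the catalytic subunit of glutamate-cysteine ligase, Mt1 was at 0.753 in spleen and 16 in lung, a 21.3-fold difference. Prdx1 was at 14.1 times the Gclc level in spleen and 39.6 times in lung, and the Txnrd1 to Prdx1 ratio was 0.0642 in spleen and 0.0343 in lung. The ratio of Nfe2l2 to Keap1 was 1.76 in spleen and 4.70 in lung, and that of Nfe2l2 to Bach2 was 3.66 and 34.3. Such ratios show unequal differences and not which of a pair was constant.

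The genes whose pair of values lay nearest to those of Mt1, by distance in log2 FPKM over the 2 libraries, were Ctla2a (19.2 FPKM in spleen and 426 FPKM in lung, distance 0.20), Fabp5 (22.5 and 415 FPKM, 0.35) and Lgals3 (22.6 and 453 FPKM, 0.42). With 2 libraries this is a likeness of level and ratio only.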
